A study of Mus musculus with 31 samples.

Results

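Mouse major histocompatibility complex (MHC) genes and the genes that feed them with peptide were followed across 31 Affymetrix arrays. They were H2-K1, H2-D1 and B2m (class I), Tap1, Psmb8 and Psmb9 (class I peptide supply), and Cd74, H2-Aa, H2-Ab1 and H2-Eb1 (class II). The members were chosen by name. Every probe set that the platform annotation gives to 1 of these symbols alone was taken, which made 31 of the 45037 probe sets other than controls, for 10 of 18193 annotated genes. A further 3 probe sets that list a member beside another gene were not assigned.

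The series compares natural and induced regulatory T cells (Treg) of mice, with 10 label groups, 1 array per sample. All are labelled CD4 T cells, sorted by flow cytometry on a green fluorescent reporter read out from the Foxp3 locus. In Foxp3/EGFP bicistronic mice the reporter is transcribed with an intact Foxp3, and in Foxp3deltaEGFP mice with a mutant one. IL-2-cultured induced Treg (2 arrays) are induced Treg kept for 1 week with interleukin 2 at 100 units per ml, and IL-2-cultured induced Foxp3delta cells (2) had the same culture. Induced Treg (5) came from reporter-negative cells of bicistronic mice, given antibodies to CD3 and CD28 with TGF-beta for 3 days and sorted as reporter-positive. Induced Foxp3delta cells (3) are their counterpart from Foxp3deltaEGFP mutants, and failed induced Treg (3) are the reporter-negative cells left in the induced Treg cultures. Activated natural Treg (3) are reporter-positive cells of bicistronic mice given both antibodies and TGF-beta. Activated T cells (4) are reporter-negative cells of those mice given both antibodies without TGF-beta. Natural Treg (4) and conventional T cells (3) are the unstimulated reporter-positive and reporter-negative cells of bicistronic mice, and natural Foxp3delta cells (2) are unstimulated reporter-positive cells of heterozygous Foxp3deltaEGFP females. All starting cells are labelled as coming from spleen and lymph nodes. The labels do not say that arrays of a group came from separate mice or cultures, so the spread between arrays may be technical.

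The arrays did not carry the profile of the labelled cells. The median T cell marker lay at percentiles 18.1 to 29.2 of an array's probe sets, with 0 of 9 above the table's median on average. Foxp3 itself read 12.7 ± 2.35 intensity units over the 31 arrays, at percentile 21.3 on average. The median myelin marker lay at percentiles 99.92 to 99.97 and the median neuron marker at 99.2 to 99.7. Markers of microglia, the resident macrophages of nervous tissue, had a median at percentiles 75.6 to 82.3, and endothelial markers one at 76.6 to 85.7. B cell and dendritic cell markers had medians at percentiles 20.2 to 31.8 and 20.4 to 35.6. Group names below are therefore the labels' names of arrays, not of cells that the data bear out. In such bulk RNA, fewer cells of a type and less RNA per cell cannot be told apart. The deposited median intensity ran from 22.2 to 55.4 between arrays. Clustering on the hybridisation controls and intensity levels, cut at a chosen number of 3, gave array sets of 15, 10 and 6. These sets come from the array values and are not batches named in the labels. Natural Treg, conventional T and both IL-2-cultured groups lay wholly in set 1, activated natural Treg wholly in set 2, and 3 of the 4 activated T arrays in set 2 with the other in set 3.

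Class I molecules sit on most nucleated cells and show peptides made inside the cell to CD8 T cells. A heavy chain, such as those of H2-K1 and H2-D1, pairs with beta-2 microglobulin (B2m), and the peptides are cut by the proteasome and pumped into the endoplasmic reticulum by the TAP transporter. Class II molecules are normally confined to antigen-presenting cells, where the invariant chain (Cd74) guides paired alpha and beta chains to endosomes. In healthy nervous tissue, neurons carry little class I, and class II is mostly found on microglia and on macrophages of the borders and vessels.

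Promoter windows from RefSeq (GRCm38.p6, 250 bases before to 50 after the gene start) were found for 8 of the 10 genes, and stretches of 6 are shown because they hold the letters of the elements through which these genes are known to be regulated. Capitals mark matches, on either strand, to GATTGG (the core of the CCAAT or Y box), TGACG (a cyclic AMP response element core), TTTCNNTT (an interferon element core) and GGATTCCCC (a kappa B element). The motifs were chosen with the windows in view, and a match is a description of letters, not a site shown to be used. Positions are chr17:34000348-34000488 (- strand) for H2-K1, chr17:35262903-35263063 (+ strand) for H2-D1, chr2:122147516-122147646 (+ strand) for B2m, chr17:34187306-34187505 (+ strand) for Tap1, chr17:34287844-34287964 (- strand) for H2-Aa and chr17:34305756-34305846 (+ strand) for H2-Eb1, each written 5′ to 3′ on the strand of the gene.
H2-K1: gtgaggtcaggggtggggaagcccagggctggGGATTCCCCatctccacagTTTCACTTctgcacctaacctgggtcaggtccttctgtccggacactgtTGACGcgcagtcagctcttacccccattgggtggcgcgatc
H2-D1: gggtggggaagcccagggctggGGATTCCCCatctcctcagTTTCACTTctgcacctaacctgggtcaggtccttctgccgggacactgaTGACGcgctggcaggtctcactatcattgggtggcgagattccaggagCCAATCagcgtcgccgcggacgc
B2m: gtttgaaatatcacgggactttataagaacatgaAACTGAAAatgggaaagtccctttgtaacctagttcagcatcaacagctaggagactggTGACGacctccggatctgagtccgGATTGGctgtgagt
Tap1: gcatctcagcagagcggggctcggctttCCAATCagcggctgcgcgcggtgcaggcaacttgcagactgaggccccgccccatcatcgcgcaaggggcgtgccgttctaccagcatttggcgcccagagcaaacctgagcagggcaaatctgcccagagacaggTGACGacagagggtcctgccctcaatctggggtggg
H2-Aa: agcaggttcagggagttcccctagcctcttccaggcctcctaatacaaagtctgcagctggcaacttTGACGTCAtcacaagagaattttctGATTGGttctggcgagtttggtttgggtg
H2-Eb1: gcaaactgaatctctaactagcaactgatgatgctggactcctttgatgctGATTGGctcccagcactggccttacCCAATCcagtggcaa

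GATTGG was found in 7 of the 8 member windows, against 16.1% of 32851 RefSeq promoter windows of the same length. The H2-K1 match lies just past the gene start, outside the stretch shown. TGACG was found in 6 of 8, against 20.8% of all windows, and TTTCNNTT in 4 of 8, against 23.9%. GGATTCCCC was in 2 of 8, the H2-K1 and H2-D1 windows, against 0.283% of all windows. These windows of the 2 heavy chain genes share an identical stretch of 47 bases. The Tap1 stretch lies towards Psmb9, whose start is 226 bases away from that of Tap1. The windows of these genes overlap on opposite strands, and their GATTGG match is the same site, counted once for each gene. Their TGACG match is likewise a shared site counted for both. The Psmb8 window held none of the 4 motifs.

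B2m, the light chain of every class I molecule, gave the brightest signal of the members. It lies at chr2:122147687-122153082 (gene positions are RefSeq's, GRCm38.p6), and its probe set 1449289_a_at read 2663 ± 725 intensity units over the 31 arrays (SD), at percentile 97.6 of an array on average. It averaged 1926 ± 1.9 on the IL-2-cultured induced Treg arrays, 2195 ± 19.9 on the IL-2-cultured induced Foxp3delta arrays, 3259 ± 639 on the induced Treg arrays and 3304 ± 946 on the induced Foxp3delta arrays. The means were 3017 ± 749.7 on the failed induced Treg arrays, 2019 ± 489.8 on the activated natural Treg arrays and 2585 ± 954 on the activated T arrays. They were 2278 ± 12.4 on the natural Treg arrays, 3219 ± 581 on the natural Foxp3delta arrays and 2367 ± 94.8 on the conventional T arrays. All spreads are SDs over the arrays of the group. The deposited level was higher on the induced Treg, induced Foxp3delta, failed induced Treg and natural Foxp3delta arrays than in the other groups by mean. The ranges of the induced Treg, induced Foxp3delta and failed induced Treg arrays overlapped those of the activated T and activated natural Treg arrays, and that of the natural Foxp3delta arrays overlapped the activated T range. The conventional T range reached those of the induced Foxp3delta and failed induced Treg arrays as well. After quantile normalisation, on the log2(intensity + 16) scale used for every log2 value here, the 10 group means of this probe set spanned only 0.10. The other B2m probe set, 1452428_a_at, read 2268 ± 606, at percentile 97.1.

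**Figure D1:**
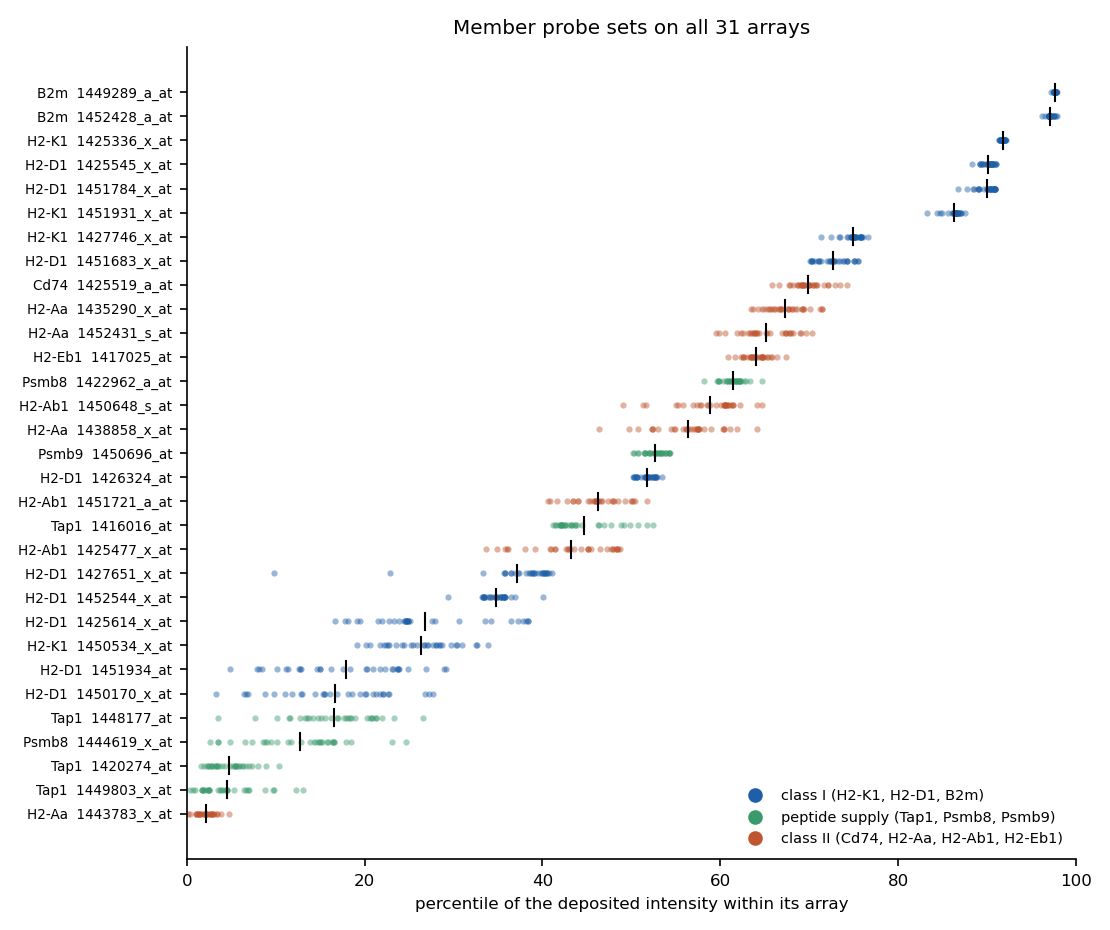
Percentile of the deposited intensity within its array (horizontal axis) for each of the 31 member probe sets (rows), with 1 point per array and a black bar at the mean of the 31 arrays. B2m lies at the top, the bright H2-K1 and H2-D1 probe sets lie at about percentiles 86.3 to 91.8, and all class II probe sets lie left of them.

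H2-K1 (chr17:33996012-34000619) and H2-D1 (chr17:35263094-35267497) encode the classical class I heavy chains, which present the peptide. H2-K1 probe set 1425336_x_at read 844 ± 203 intensity units, at percentile 91.8. It averaged 717 ± 28.4 on the IL-2-cultured induced Treg arrays, 812 ± 10.9 on the IL-2-cultured induced Foxp3delta arrays, 1003 ± 200.1 on the induced Treg arrays and 1028 ± 277 on the induced Foxp3delta arrays. The means were 862 ± 47 on the failed induced Treg arrays, 579.5 ± 121 on the activated natural Treg arrays and 752 ± 277 on the activated T arrays. They were 806 ± 30.2 on the natural Treg arrays, 959 ± 339.9 on the natural Foxp3delta arrays and 846 ± 30.1 on the conventional T arrays. Its percentile stayed between 91.4 and 92.1 on the 31 arrays. Its residual SD on the log2 scale was 0.03, the smallest of the 19 tested members, against a median of 0.15 over all 24670 probe sets tested. The H2-K1 probe sets 1451931_x_at and 1427746_x_at read 483 ± 124 and 210.4 ± 49.1, at percentiles 86.3 and 74.9. The fourth, 1450534_x_at, read 14.6 ± 2.88 and passed the 95th percentile of 27 bacterial control probe sets, used here as a background level, on 23 of 31 arrays.

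H2-D1 had 9 probe sets, of which 2 were bright. 1425545_x_at read 707 ± 176 and 1451784_x_at 697 ± 180.2 intensity units, at percentiles 90.2 and 90.0. 1425545_x_at averaged 639 ± 7.11 on the IL-2-cultured induced Treg arrays, 698 ± 43.3 on the IL-2-cultured induced Foxp3delta arrays, 836 ± 183 on the induced Treg arrays and 810.4 ± 258 on the induced Foxp3delta arrays. The means were 728 ± 48.6 on the failed induced Treg arrays, 457 ± 60.1 on the activated natural Treg arrays and 609 ± 249 on the activated T arrays. They were 718 ± 8.13 on the natural Treg arrays, 776 ± 318 on the natural Foxp3delta arrays and 735 ± 25.4 on the conventional T arrays. 1451683_x_at read 179.6 ± 43.2 and 1426324_at 44.4 ± 10.7. The other 5 averaged 11.4 (1450170_x_at), 11.6 (1451934_at), 14.6 (1425614_x_at), 19.1 (1452544_x_at) and 21.8 (1427651_x_at), and were not tested. Most heavy chain probe sets carry the suffix that Affymetrix gives to probes shared with other transcripts, so the signals of H2-K1, H2-D1 and their near copies cannot be fully separated.

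The probe sets of the genes that supply class I with peptide gave dimmer signals. Psmb8 (chr17:34198195-34201454), a catalytic subunit of the immunoproteasome, read 82.2 ± 16.4 intensity units with 1422962_a_at, at percentile 61.4. It averaged 80.4 ± 4.3 on the IL-2-cultured induced Treg arrays, 87.7 ± 10.1 on the IL-2-cultured induced Foxp3delta arrays, 91.8 ± 12.3 on the induced Treg arrays and 84.5 ± 19.4 on the induced Foxp3delta arrays. The means were 91.1 ± 8.4 on the failed induced Treg arrays, 55.5 ± 8.03 on the activated natural Treg arrays and 67.6 ± 14.4 on the activated T arrays. They were 92.5 ± 7.4 on the natural Treg arrays, 74.5 ± 32.5 on the natural Foxp3delta arrays and 89.5 ± 3.28 on the conventional T arrays. Psmb9 (chr17:34182030-34187330), another such subunit, read 47.1 ± 11.7 with 1450696_at, its only probe set, at percentile 52.6. Its group means ran from 28.7 on the activated natural Treg arrays to 56.4 on the conventional T arrays, and after normalisation spanned 0.16 on the log2 scale. Tap1 (chr17:34187556-34197225), a chain of the TAP transporter, read 29.1 ± 4.29 with 1416016_at, at percentile 44.7. Its other probe sets, 1448177_at, 1420274_at and 1449803_x_at, averaged 11.2, 8.22 and 8.11. The first of these passed the background level on 7 arrays and the others on 0, while the second Psmb8 probe set, 1444619_x_at (10.1), passed it on 5.

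Cd74 (chr18:60803849-60812652), the class II invariant chain, gave the brightest class II signal at 151 ± 45.5 intensity units (1425519_a_at), at percentile 69.9. It averaged 133 ± 9.82 on the IL-2-cultured induced Treg arrays, 141 ± 1.99 on the IL-2-cultured induced Foxp3delta arrays, 183 ± 51.3 on the induced Treg arrays and 192 ± 90.5 on the induced Foxp3delta arrays. The means were 146 ± 28.2 on the failed induced Treg arrays, 98.5 ± 25.6 on the activated natural Treg arrays and 117 ± 35.1 on the activated T arrays. They were 160.0 ± 22.1 on the natural Treg arrays, 157 ± 46.3 on the natural Foxp3delta arrays and 160.3 ± 6.48 on the conventional T arrays. Within the 3 induced Foxp3delta arrays it ran from 97.8 to 278, wider than the difference between any 2 group means.

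H2-Eb1 (chr17:34305867-34316674), a class II beta chain, read 99.2 ± 23.4 with 1417025_at, its only probe set. It averaged 90.2 ± 2.64 on the IL-2-cultured induced Treg arrays, 109.7 ± 18.3 on the IL-2-cultured induced Foxp3delta arrays, 112 ± 20 on the induced Treg arrays and 99.1 ± 28 on the induced Foxp3delta arrays. The means were 106 ± 10.5 on the failed induced Treg arrays, 69.6 ± 1.91 on the activated natural Treg arrays and 69.3 ± 24.7 on the activated T arrays. They were 117 ± 6.57 on the natural Treg arrays, 113 ± 36.6 on the natural Foxp3delta arrays and 107 ± 5.58 on the conventional T arrays. The activated natural Treg and activated T arrays were dimmest as deposited. After normalisation activated natural Treg, at 6.95 ± 0.17, was level with natural Foxp3delta (6.95 ± 0.06) and natural Treg (6.93 ± 0.04) at the top of the 10 means. Activated T stayed among the lowest.

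H2-Aa (chr17:34282744-34287823), the class II alpha chain of I-A, had 3 probe sets above background on every array. 1435290_x_at read 126 ± 37.9, 1452431_s_at 110.1 ± 36.3 and 1438858_x_at 61.7 ± 21.6 intensity units, at percentiles 67.3, 65.1 and 56.3. The fourth, 1443783_x_at, averaged 7.48 and passed the background level on 0 of 31 arrays. H2-Ab1 (chr17:34263227-34269418), the beta chain that pairs with it, read 72.8 ± 23.9 with 1450648_s_at, 33.1 ± 9.36 with 1451721_a_at and 29.3 ± 9.33 with 1425477_x_at, all above background on 31 of 31 arrays. The H2-Ab1 probe set 1450648_s_at ranged from 21.1 to 111. H2-Aa 1435290_x_at and 1438858_x_at and H2-Ab1 1425477_x_at carry the same shared-probe suffix as most heavy chain probe sets. Their signals may therefore include other transcripts.

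Taking the brightest probe set of each gene, the lowest class I gene lay above the highest class II gene in percentile on 31 of 31 arrays, by 15.3 to 22.8 points. Class I percentiles ran from 88.3 to 97.9, class II from 49.1 to 74.3, and peptide supply from 41.2 to 64.7. Probes differ in how strongly they bind, so these percentiles rank signals and not amounts of RNA, and they carry no test. The brightest was picked from 9 H2-D1 and 4 H2-K1 probe sets, but from 1 for Cd74. For the heavy chains the order depends on that choice. H2-D1 1426324_at, the only tested heavy chain probe set without the shared-probe suffix, averaged percentile 51.7, below Cd74 at 69.9. Both B2m probe sets, at 97.6 and 97.1, kept the order. The background level was passed on all 31 arrays by 10 of 15 class I, 3 of 7 peptide supply and 8 of 9 class II probe sets, against 65.4% of all probe sets. Cd4 and Cd79a, a T cell and a B cell marker, passed it on all arrays too, so passing it says little on its own.

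**Figure D2:**
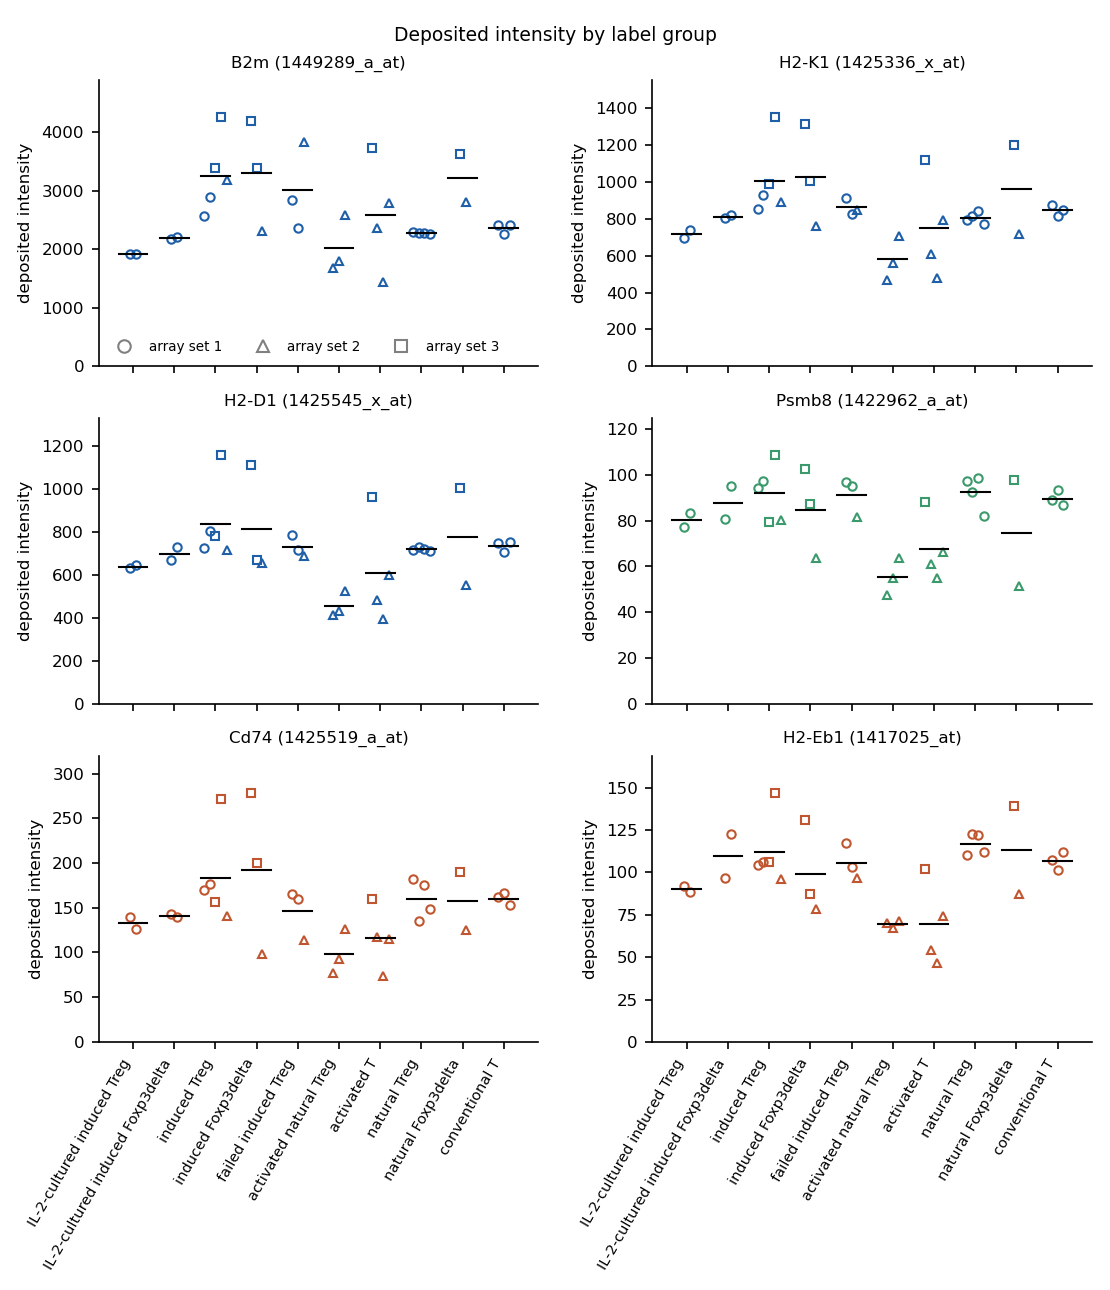
Deposited intensity (vertical axis, from 0) of the brightest probe set of 6 member genes by label group, with 1 point per array, shaped by array set, and a black bar at the group mean. B2m stays between 1441 and 4256, Cd74 between 74.2 and 278, and in each of the 4 groups that mix set 3 with other arrays the set 3 arrays are the brightest for B2m.

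Whether the members differed between labels was tested with limma on quantile normalised values over all 31 arrays. A probe set was called at a Benjamini-Hochberg adjusted p under 0.05 over the 24670 probe sets tested, 19 of them members (9 class I, 3 peptide supply, 7 class II). Over 9 comparisons, 2 of 171 member tests were called, against 2.67% of the same tests over all probe sets. No class I difference exceeded 0.34 in size on the log2 scale, no peptide supply difference 0.32 and no class II difference 0.76. A joint test for any difference among the 10 groups called 1 of 19 members, H2-Aa 1438858_x_at (adjusted p = 0.0365), against 12.4% of all probe sets tested.

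Activated T arrays were set against conventional T arrays, a contrast of stimulation by label only, where 6.17% of all probe sets were called. 1 of 19 members was called, and its probe set carries the shared-probe suffix. H2-Aa 1438858_x_at read 46.9, 27.6, 18.5 and 49.8 intensity units on the 4 activated T arrays, against 102, 109 and 84.5 on the 3 conventional T arrays. After normalisation it was 5.95, 5.85, 5.60 and 6.31 on the activated T arrays, against 6.66, 6.85 and 6.54 on the conventional T arrays. All 4 activated T arrays lay below all 3 conventional T arrays, a log2 difference of -0.76 ± 0.15 (SE; adjusted p = 0.00623). The call was lost with array set as a block (-0.63, adjusted p = 0.283) and without conventional T replicate 2 (-0.68, adjusted p = 0.0502). No array set holds arrays of both groups, so set and label cannot be told apart without the arrays of other groups.

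The other probe sets of H2-Aa differed by less and were not called. 1435290_x_at had a log2 difference of -0.30 ± 0.12 (SE; adjusted p = 0.144) and 1452431_s_at one of 0.11 ± 0.17 (SE; adjusted p = 0.736) between activated T and conventional T. The groups did not overlap for the first of these and overlapped for the second. The mean of all 4 probe sets of the gene differed by -0.23, with an adjusted p of 0.0845 over genes. That mean includes 1443783_x_at, which passed the background level on 0 arrays. Within array sets 1, 2 and 3, 1438858_x_at correlated with 1435290_x_at at r = 0.65, 0.07 and 0.75 over 15, 10 and 6 arrays. With 1452431_s_at it correlated at 0.04, 0.17 and 0.34. These correlations are descriptions, since arrays of a set share the intensity features that define it and the same few label groups.

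**Figure D3:**
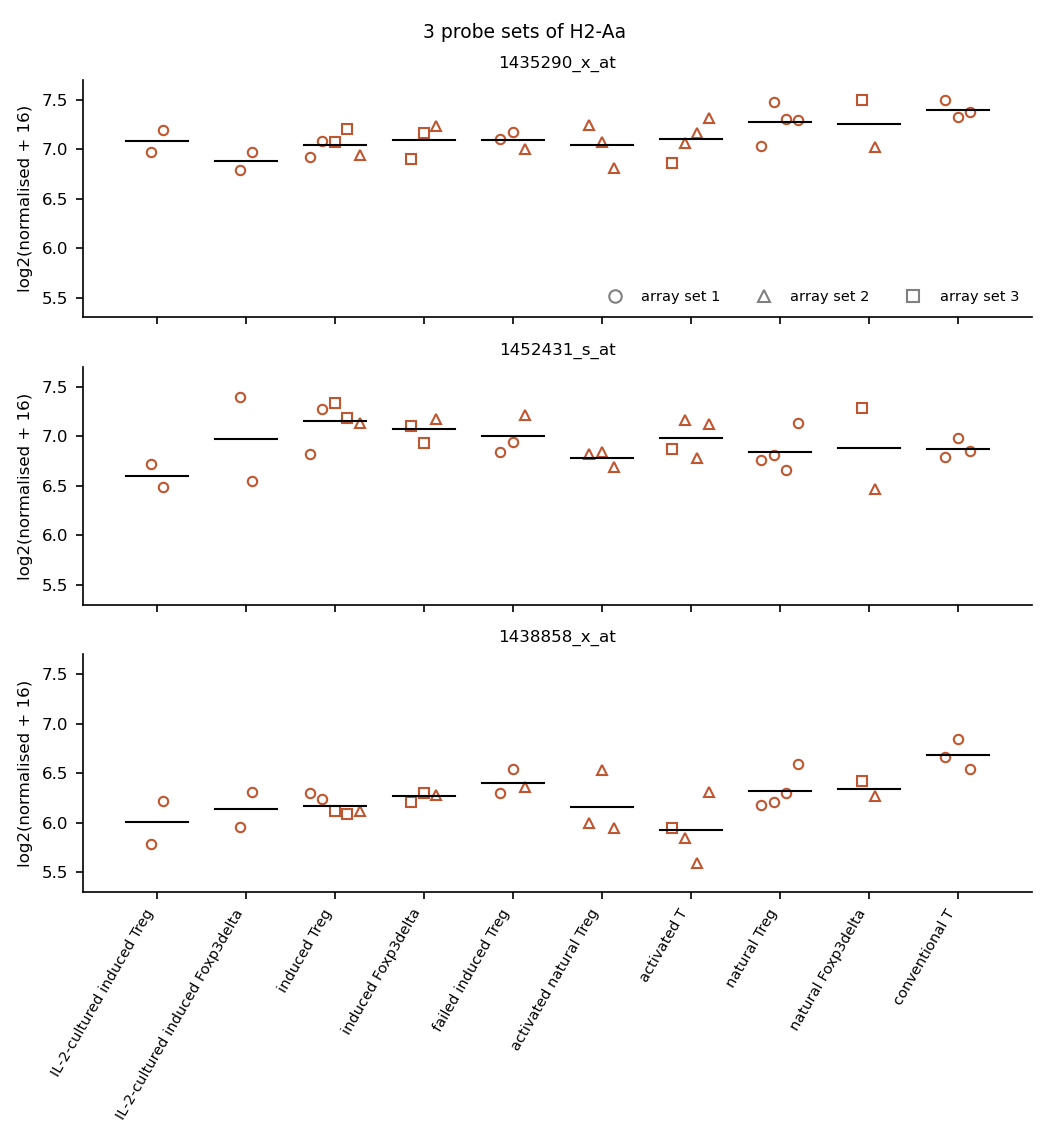
Normalised log2(intensity + 16) of the 3 tested H2-Aa probe sets (panels) by label group, with 1 point per array, shaped by array set, and a black bar at the group mean. In the bottom panel, 1438858_x_at, the activated T arrays lie at 5.60 to 6.31 and the conventional T arrays at 6.54 to 6.85, in the top panel these groups are closer, and in the middle panel they overlap.

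All 9 tested class I probe sets were lower on activated T than on conventional T arrays, with a median log2 difference of -0.09 against 0.00 for all probe sets tested, and none was called. That direction depended on the scaling: with arrays brought only to a common median, 6 of the 9 were higher (median 0.17), and as deposited 7 of 9 were lower (median -0.42). The whole table behaved alike, with 733 probe sets called higher and 789 lower after quantile normalisation, 5930 and 673 after median scaling, and 12 and 6084 as deposited. In the peptide supply group, Tap1 had a log2 difference of 0.32 ± 0.12 (SE; adjusted p = 0.105), with 5.44, 5.73, 5.75 and 5.95 on the activated T arrays against 5.39, 5.41 and 5.39 on the conventional T arrays. The activated T array of set 3 (5.44) lay next to the conventional T arrays, and the 3 of set 2 lay above it. Over all groups, Tap1 averaged 5.75 on the 10 arrays of set 2, and 5.41 on those of set 1 and of set 3.

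In activated natural Treg against natural Treg, 15.6% of all probe sets were called and 1 of 19 members. H2-D1 1451784_x_at read 315, 419 and 513 intensity units on the activated natural Treg arrays, against 705, 747, 754 and 699.9 on the natural Treg arrays. After normalisation it was 9.14, 9.33 and 9.33 on the activated natural Treg arrays, against 9.55, 9.60, 9.58 and 9.60 on the natural Treg arrays. The groups did not overlap, and the log2 difference was -0.32 ± 0.10 (SE; adjusted p = 0.036). H2-D1 1425545_x_at, as bright, differed by -0.15 ± 0.07 (SE; adjusted p = 0.161), 1426324_at by -0.09 ± 0.05 (SE; adjusted p = 0.266) and 1451683_x_at by -0.04 ± 0.09 (SE; adjusted p = 0.83). The call was lost without any 1 of the 4 natural Treg arrays, or without activated natural Treg replicate 1 or 2 (adjusted p between 0.0551 and 0.157). It was also lost with median scaling (-0.13, adjusted p = 0.487) and with array set as a block (-0.08, adjusted p = 0.859). The actin 3′ to 5′ signal ratio, a measure of RNA quality, was 2.05 to 2.13 on the activated natural Treg arrays and 1.73 to 1.84 on the natural Treg arrays, and its part in the result was not tested.

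**Figure D4:**
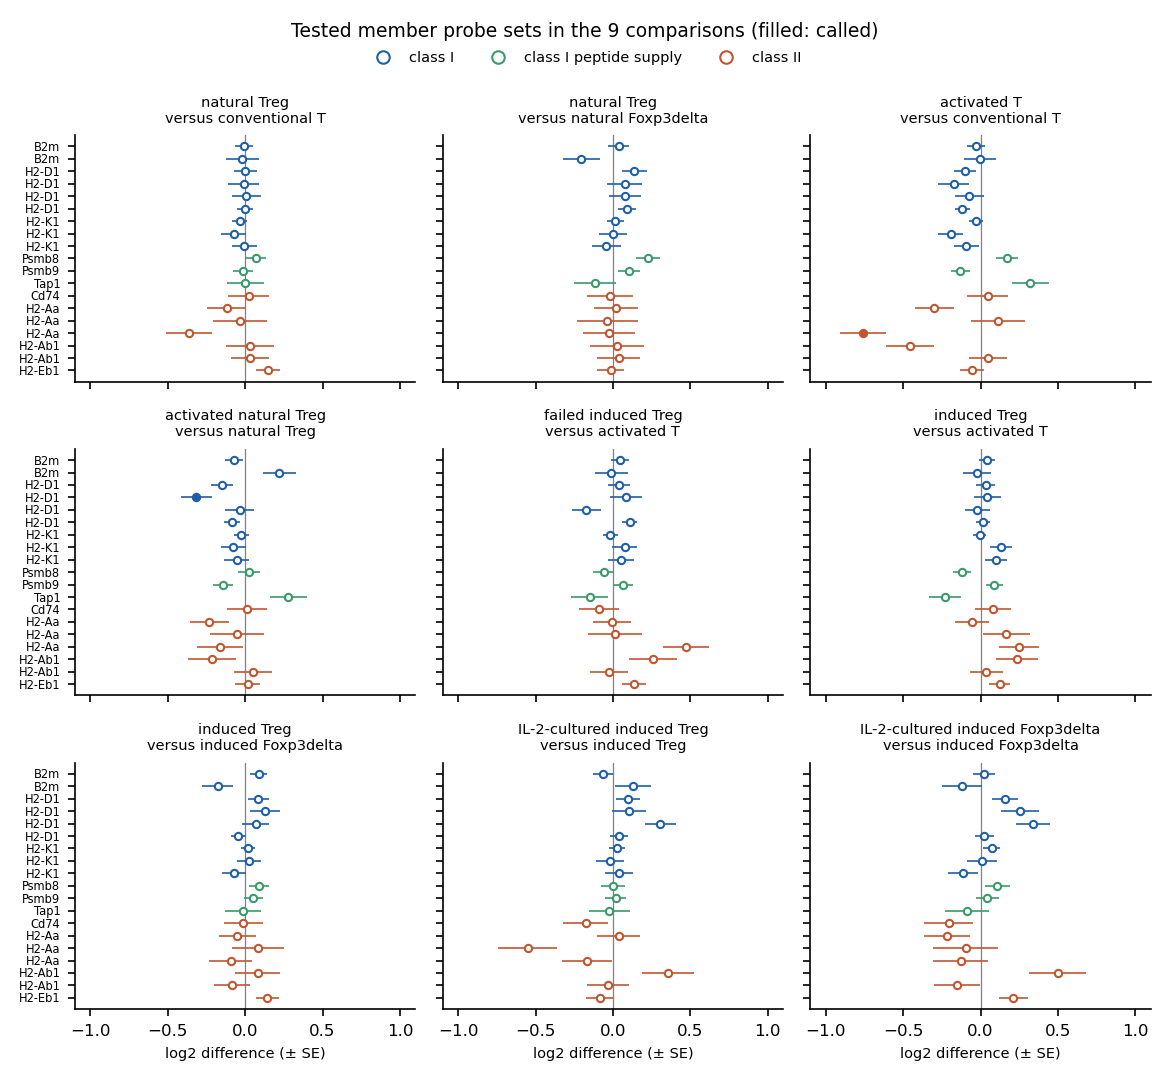
Log2 difference (horizontal axis, ± SE of the limma fit) of the 19 tested member probe sets (rows, labelled by gene) in each of the 9 comparisons (panels), first-named label minus second. The 2 filled points are the called H2-Aa and H2-D1 probe sets, at -0.76 and -0.32.

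The remaining 7 comparisons called no member. Natural Treg against conventional T, by label the contrast between regulatory and conventional cells, called 0.00405% of all probe sets. The member with the smallest p was H2-Aa 1438858_x_at, -0.36 ± 0.15 (SE, adjusted p = 0.9999). Class I probe sets differed there by at most 0.07 in size. The groups did not overlap for H2-K1 1425336_x_at (-0.04 ± 0.05, SE), H2-K1 1451931_x_at (-0.07 ± 0.08) and H2-Eb1 (0.15 ± 0.08), none of them called. They overlapped for the other members. Natural Treg against natural Foxp3delta, which by label bears on an intact Foxp3, called 0.0892%. Psmb8 was nearest, with 6.72, 6.60, 6.63 and 6.60 on the natural Treg arrays, against 6.47 and 6.35 on the natural Foxp3delta arrays, a difference of 0.23 ± 0.08 (SE; adjusted p = 0.168). Its groups did not overlap. All natural Treg arrays lie in set 1 and both natural Foxp3delta arrays outside it, so set and label cannot be told apart here either. By label the natural Foxp3delta cells came from heterozygous females and the natural Treg from bicistronic mice. What other differences between these mice add was not tested.

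For induction, failed induced Treg against activated T called 0.0365% of all probe sets, with H2-Aa 1438858_x_at nearest among members at 0.47 ± 0.15 (SE; adjusted p = 0.177). Induced Treg against activated T called 0.0567%, with Tap1 nearest at -0.23 ± 0.11 (SE; adjusted p = 0.451). Within array set 2, which holds 1 induced Treg and 3 activated T arrays, that Tap1 difference was -0.02. Induced Treg against induced Foxp3delta called 0% of all probe sets, that is 0 by limma. At an unadjusted p under 0.05 there were 751 of 24670, below the 0.05 share that no difference would give. That shortfall does not show that the groups are alike. The fit had no term for array set, although the induced Treg arrays are spread over the sets, and the cause was not tested. The nearest member there was H2-Eb1, 0.14 ± 0.07 (SE; adjusted p = 1).

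The labels of further culture with interleukin 2 were compared in each labelled genotype. IL-2-cultured induced Treg against induced Treg called 1.79% of all probe sets, and the smallest member p belonged to H2-D1 1451683_x_at. It was 7.86 and 7.87 on the IL-2-cultured induced Treg arrays, against 7.38, 7.46, 7.75, 7.61 and 7.59 on the induced Treg arrays, a log2 difference of 0.31 ± 0.10 (SE; adjusted p = 0.115). Within array set 1, which holds both IL-2-cultured and 2 of the 5 induced Treg arrays, the difference was 0.43 and was called (adjusted p = 0.0215), in a setting chosen after seeing the data that called 1.7% of all probe sets. It was also called with array set as a block (0.41, adjusted p = 0.0482), which called 1.31%. IL-2-cultured induced Foxp3delta against induced Foxp3delta called 0.332% of all probe sets, and the same probe set had 7.82 and 7.83 on the IL-2-cultured induced Foxp3delta arrays, against 7.47, 7.61 and 7.39 on the induced Foxp3delta arrays. That is 0.34 ± 0.11 (SE; adjusted p = 0.131). The groups did not overlap in either genotype, but no array set holds both of the second pair. The bright H2-D1 probe set 1425545_x_at differed by 0.10 ± 0.08 (SE; adjusted p = 0.603) and 0.16 ± 0.09 (SE; adjusted p = 0.377).

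Tests of the difference between 2 effects called 0 of 19 members and 0% of all probe sets in each case. For interleukin 2 culture, the effect in induced Treg minus that in induced Foxp3delta was furthest from 0 by p for H2-Eb1, at -0.30 ± 0.13 (SE; adjusted p = 1). For stimulation, the effect in natural Treg minus that in conventional T was so for H2-Aa 1438858_x_at, at 0.60 ± 0.21 (SE; adjusted p = 0.476). By label, TGF-beta was given to the activated natural Treg but not to the activated T cells. The stimulation test therefore cannot separate the starting cells from TGF-beta. By limma, 667 and 1863 of the 24670 probe sets tested had an unadjusted p under 0.05 in these 2 tests. The first lies below and the second above the 0.05 share that no difference would give. A share below it does not show that the effects are alike.

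The probe sets of B2m ran against each other. Over the arrays of sets 1, 2 and 3, the normalised values of 1449289_a_at and 1452428_a_at correlated at r = -0.53, -0.57 and -0.60, given as a description over 15, 10 and 6 arrays. The second had an SD of 0.15 over all 31 arrays on the log2 scale and the first one of 0.06. In activated natural Treg against natural Treg, 1452428_a_at differed by 0.22 ± 0.11 (SE; adjusted p = 0.152) and 1449289_a_at by -0.07 ± 0.06 (SE; adjusted p = 0.444). Agreement between the probe sets of H2-K1, H2-D1 and H2-Ab1 was mixed as well: of the 10 pairs of these genes, the correlations ran from -0.37 to 0.34 in set 1 and from -0.33 to 0.58 in set 2. In set 3 they ran from -0.80 for a pair of H2-K1 probe sets to 0.99 for the bright H2-D1 probe sets.

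**Figure D5:**
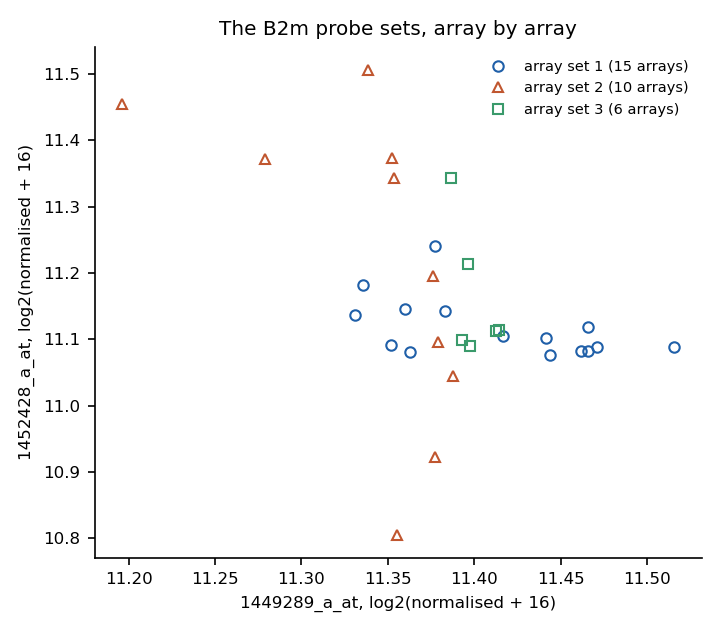
Normalised log2(intensity + 16) of the B2m probe sets 1449289_a_at (horizontal axis) and 1452428_a_at (vertical axis), with 1 point per array and colour and shape for the array set. Points fall towards the lower right within each set (r = -0.53, -0.57 and -0.60), and both axes span well under 1 log2 unit.

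Over the 6 pairs of Cd74, H2-Aa, H2-Ab1 and H2-Eb1 (brightest probe sets), the median r was -0.08 in set 1, -0.07 in set 2 and -0.08 in set 3, with ranges of -0.45 to 0.21, -0.55 to 0.67 and -0.92 to 0.36. Residual SDs on the log2 scale had a median of 0.18 for class II, 0.08 for peptide supply and 0.10 for class I probe sets, beside 0.15 for all probe sets tested. Tap1 and Psmb9, whose starts lie side by side, correlated at -0.09, -0.80 and 0.09 in the 3 sets.

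Among class I assembly genes, 9 of 9 on the array passed the background level on all arrays, and the median lay at percentile 88.0 of an array. The endoplasmic reticulum chaperones Canx, Pdia3 and Calr read 4311 ± 1259, 3478 ± 942 and 3098 ± 891 intensity units (SD, n = 31), and Tapbp (tapasin, which holds empty class I at the TAP transporter) read 581 ± 148. Standard proteasome subunits had a median percentile of 97.3, led by Psmb7 at 4601 ± 1484. Nonclassical class I genes had one of 61.5, led by Fcgrt, the neonatal Fc receptor, at 374 ± 106.

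Class II loading genes had a median percentile of 66.5. The lysosomal proteases Ctsl, Ctss and Lgmn read 2715 ± 672, 2246 ± 662 and 1420.3 ± 387, and the thiol reductase Ifi30 132 ± 30. The peptide exchange gene H2-DMa, named after its value was seen, read 119.5 ± 26.5. H2-DMb2, H2-Oa, H2-Ob and H2-Eb2, the other class II genes of the list, likewise named after their values were seen, averaged 18.7, 15.8, 16.2 and 23.4 and were not tested. Regulators of the MHC had a median percentile of 77.5, led by the kinase Jak1 at 1391 ± 476. The coactivators Ciita (class II) and Nlrc5 (class I), also named after their values were seen, read 14.1 ± 2.69 and 16.3 ± 2.77, at percentiles 25.4 and 30.6, above the background level on 26 and 31 of 31 arrays.

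Of 38 tested genes on these pathway lists, 6 were called in activated T against conventional T, where 6.17% of all probe sets were called. These groups lie in different array sets, and array set as a block left 20 of 1522 calls over all probe sets. Psma7 (a proteasome core subunit) rose by 0.72 ± 0.15, Irf1 (an interferon-regulated activator of class I) by 0.52 ± 0.13 and Tap2 (the partner of Tap1) by 0.24 ± 0.07 on the log2 scale (SE). Psmb5, H2-M3 and Creb1 fell by 0.28 ± 0.08, 0.33 ± 0.07 and 0.51 ± 0.13. In activated natural Treg against natural Treg, where 15.6% of all probe sets were called, 11 of 38 were called, 5 higher and 6 lower. These groups too lie in different sets, and the block left 49 of 3841 calls. The 11 included Psma7 (0.72 ± 0.15), Rfxank (0.66 ± 0.15), Irf1 (0.49 ± 0.13), Ctsl (-0.35 ± 0.10), Pdia3 (-0.25 ± 0.07) and Jak1 (-0.91 ± 0.20). The other 7 comparisons called 0 of 38 by limma, while calling at most 1.79% of all probe sets. Of 40 tested marker genes, 3 were called in activated T against conventional T (Cd3e at 0.81, Pecam1 at -0.61, Rbfox3 at -0.70) and 4 in activated natural Treg against natural Treg (Cd3e at 0.59, C1qb at -0.30, Actb at -0.41, Tbp at -0.32), shares near or below those over all probe sets. In IL-2-cultured induced Treg against induced Treg, 1 of 40 was called (Cx3cr1 at -0.41). Their part in the pathway results was not tested.

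Genes whose pattern was most like a member's were ranked by Pearson's r over the 31 arrays among 12172 other genes, as a description in which the array sets are shared by all points. B2m was nearest to Gsto1 (r = 0.77), Zswim1 (0.75) and Trem2 (0.74), with r = 0.75, 0.69 and 0.83 over the 15 arrays of set 1. H2-D1 was nearest to Uggt1 (0.84), Rbms1 (0.81) and Dynll2 (0.79), with r = 0.39, 0.52 and 0.29 over set 1. H2-K1 was nearest to Gspt1 (0.73), Gipc2 (0.72) and Clk2 (0.71), and Cd74 to Adamtsl5 (0.65), Fam171b (0.61) and Ndufa1 (0.60). H2-Aa was nearest to Ufsp1 (0.58), Rab11fip5 (0.57) and Abcb8 (0.56). No member was among the 3 nearest genes of these 5.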

How the data were processed

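Total RNA was measured on 31 Affymetrix mouse arrays, 1 per sample, in 10 label groups. The intensity values were used as deposited by the authors in 1 table of 45101 probe sets. Their summarisation, background correction and scaling are not given in the sources used here. The platform annotation gave 34945 probe sets 1 symbol, 932 several and 9160 none, and 64 were controls.

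Intensities were quantile normalised and taken as log2(intensity + 16). Probe sets above the table median (39.8) on at least 2 arrays were kept, 24670 in all. limma 3.58.1 in R 4.3.3 (lmFit, eBayes) fitted 1 mean per group over the 31 arrays, and p-values were adjusted over all 24670 by Benjamini-Hochberg. Adjusted p-values here are limma's, and a call is an adjusted p under 0.05. The fit was checked on simulated data. Percentiles rank deposited intensities within an array. Array sets came from Ward clustering of the cre to bioB control ratio, the median and the 99th percentile of each array. The number of sets was chosen, not estimated.

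Genes named in each comparison are the members called or, with none called, the member of smallest p, and from each pathway list up to 4 called genes by smallest p and the brightest genes. The members and lists were chosen with earlier results of these data known. The labels do not show that replicates are separate animals or cultures, so p-values measure the spread between these arrays. The number of arrays limits the precision. Alternatives were other scalings, pseudocounts, filters, probe set rules, blocks and left-out arrays.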

Additional observations from a re-analysis of the deposited data

Results flagged for a closer look

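In 5 of 57 checks of a tested member in a label group of at least 4 arrays, 1 array stood apart from the others of its group. Chance flags about 1 in 20 groups, which is 2.85 of 57. Values are normalised log2(intensity + 16). H2-K1 1425336_x_at was 9.69 on induced Treg replicate 3, below the 9.75 to 9.77 of the other induced Treg arrays. H2-K1 1427746_x_at was 7.92 on induced Treg replicate 5, above the others at 7.79 to 7.83. The same probe set was 7.49 on activated T replicate 3, below the others at 7.79 to 7.83, with a deposited intensity of 87.8. H2-K1 1451931_x_at was 9.01 on natural Treg replicate 2, with the others at 8.96. Tap1 1416016_at was 5.79 on induced Treg replicate 5, the only induced Treg array of set 2, with the others at 5.35 to 5.46.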

How the results depend on the processing

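Of 138 counts of called members under settings other than a left-out array, 22 moved. Of 292 alternative values of the named differences, 273 kept their side of the threshold, 13 lost the call and 6 gained one. A change of sign was counted only where the main or the alternative value was called, and there 0 changed sign. Changes of sign between uncalled values were not counted. In activated T against conventional T, with 1 member called, the count was 7 as deposited, 6 after median scaling, and 0 with 1 probe set per gene, with the mean of a gene's probe sets or with array set as a block. In activated natural Treg against natural Treg, with 1 called, it was 15 as deposited, 2 after median scaling, 3 without the filter, and 0 with either rule for probe sets or with array set as a block. The joint test, with 1 called, gave 14 as deposited, 5 after median scaling, and 0 without the filter, with either rule for probe sets or with the block. Natural Treg against natural Foxp3delta gave 1 after median scaling, induced Treg against activated T 15 as deposited, and IL-2-cultured induced Treg against induced Treg 1 with array set as a block and 1 within array set 1, a setting chosen after seeing the data, each against 0. The cause was not tested. Leaving out 1 array gave 0 to 4 members in activated T against conventional T (0 without conventional T replicate 2, 4 without activated T replicate 1), 0 to 1 in activated natural Treg against natural Treg (1 only without activated natural Treg replicate 3) and 0 to 2 in the joint test. Over all probe sets, array set as a block left 20 calls of 1522 and 49 of 3841 in the first 2 comparisons.

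The median of all tested probe sets moved by -0.53 to 0.45 (log2) between groups as deposited, and by -0.10 to 0.12 after median scaling. In activated natural Treg against natural Treg, 1906 probe sets were called higher and 1935 lower, against 78 and 16068 as deposited and 3803 and 1294 after median scaling. Same-numbered arrays did not deviate together in every pair of any comparison, so the main fit left the numbers unpaired. With 2 to 4 pairs per comparison, this check cannot exclude pairing. Failed induced Treg against induced Treg, labelled as coming from the same cultures, was not among the comparisons checked. With the replicate block, activated natural Treg against natural Treg called 0 members (H2-D1 1451784_x_at at -0.31, adjusted p = 0.0555) and activated T against conventional T 1 (H2-Aa 1438858_x_at at -0.82, adjusted p = 0.00248). Ranking among single-symbol probe sets lowered all 31 percentiles, 22 of them by more than 1 SD over the arrays, and the largest shift was -7.12 points. Dim probe sets lie near the background level, which limits what their values show.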
